A study of Mus musculus with 2 samples.

Results

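The insulin-like growth factor (IGF) system was examined in the mouse hippocampus through 10 genes, chosen by gene name as ligands (Igf1 and Igf2), receptors (Igf1r, Igf2r, Insr and Insrr) and binding proteins (Igfbp2, Igfbp3, Igfbp4 and Igfbp5). They are 10 of 34741 genes and transcripts named on the array, with 18 of 55681 probes and 32 of 59305 spots. The samples were 1 hippocampus sample from 5/6Nx mice and 1 from sham mice, all of the outbred ICR strain and taken 8 weeks after the operation. 5/6Nx is the usual short form of 5/6 nephrectomy, an operation that takes away most kidney tissue to model chronic renal failure, and sham animals were operated on as its control. RNA was labelled with Cy3 and read on 1-colour arrays of 60-base probes. Each group holds 1 array, so no test between groups was possible, every difference describes these arrays only, and neither the number of animals behind each array nor their age or sex is given in the labels.

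IGF-1 and IGF-2 are small secreted hormones related to insulin. They signal mainly through the IGF-1 receptor and, less strongly, the insulin receptor, whereas the IGF-2 receptor binds IGF-2 for uptake and breakdown and also carries lysosomal enzymes. The binding proteins hold the ligands in blood, cerebrospinal fluid and tissue and release them when proteases cut them. In the brain the system is known for its roles in growth, myelination, adult neurogenesis and memory.

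The probes decide what each value can show, and the sequences that matter for the results below are those of Igf1, Insrr and Igfbp2. The files give positions on the mm9 build. The 5 Igf1 probes are shown by their first 30 bases, since they did not read alike, and capitals mark bases found in more than 1 of the printed runs.
Igf1 probe A_55_P2085979, chr10:87378456-87378515, plus strand: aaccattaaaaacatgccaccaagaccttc
Igf1 probe A_55_P2085984, chr10:87393561-87393620, plus strand: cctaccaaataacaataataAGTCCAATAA
Igf1 probe A_55_P2031631, chr10:87393581-87393640, plus strand: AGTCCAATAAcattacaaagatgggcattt
Igf1 probe A_55_P2031636, chr10:87395924-87395983, plus strand: agaaatgtaaatggaataagaggtcagctg
Igf1 probe A_55_P2085974, chr10:87399581-87399640, plus strand: ctcctgattgtatttgaagtggttattcaa
The probes starting at 87393561 and 87393581 overlap by 40 of their 60 bases, so they are no independent readings. The last 4 are annotated to NM_010512, and their spacing on the transcript (20, 2363 and 6020 bases from the first of them) equals their spacing on the chromosome, so no intron lies between them. The first is annotated to another transcript, NM_184052, and lies 15.1 kb upstream of the nearest of the others.

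Insrr has a single probe, shown by 30 bases because it carries AATAAA, the canonical polyadenylation signal found near the end of many messenger RNAs, here in capitals.
Insrr probe A_55_P1983708, chr3:87619964-87620023, plus strand, bases 20 to 49: tggagaagactcAATAAAtacggaggtctg
AATAAA was searched on both strands. It stood on the printed strand of 1 of the 18 probes of the IGF system, and of 10.1% of all 55681 probes. On the other strand it stood in 0 of 18 and in 3.74% of all probes. One of the probes of Igfbp2 is printed whole, as it reads as open coding sequence up to its last 3 bases, a stop codon in capitals.
Igfbp2 probe A_55_P2056729, chr1:72898677-72898736, plus strand: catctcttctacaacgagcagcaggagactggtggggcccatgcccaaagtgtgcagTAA

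The other probes lie at chr7:149839661-149839720 (Igf2, minus strand), chr7:75378461-75378520 (Igf1r, plus), chr1:72898813-72898872 (Igfbp2, plus) and chr1:72904829-72904888 (Igfbp5, minus). Those of Igfbp3 lie at chr11:7106594-7106653 and chr11:7107949-7108008 (minus), and that of Igfbp4 at chr11:98913334-98913393 (plus). Those of Insr lie at chr8:3155472-3155531, chr8:3154024-3154083 and chr8:3151667-3151726 (minus). The exon or untranslated region of each probe was not looked up.

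All 10 genes were well above background on both arrays, and none of their 32 spots was saturated or marked as an outlier. The share of all spots well above background was 72.5% in 5/6Nx and 72.7% in sham. A difference is the log2 signal in 5/6Nx minus that in sham, once signals were divided by the 75th percentile of their array (1263 in 5/6Nx and 1452 in sham). Equal signals on the arrays therefore read as a difference of 0.20. A difference of at least 2-fold is called higher or lower as a size, not as a test.

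**Figure D1:**
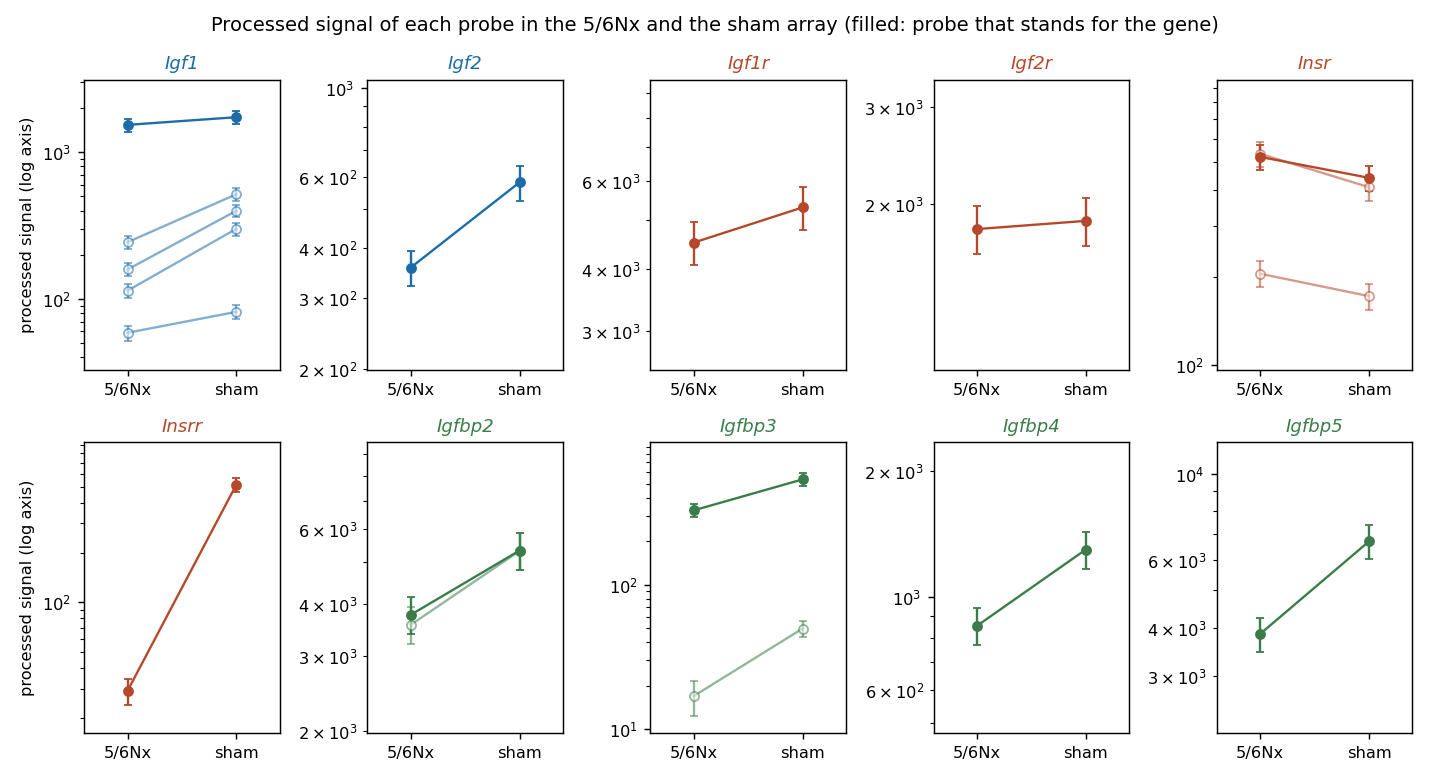
Processed signal of every probe (log axis, arbitrary units) in the 5/6Nx array, on the left of each panel, and the sham array, on the right, with the scanner software's own error as bars. Filled points are the probe that stands for the gene and open points its other probes. Each panel has its own axis, and Insrr spans the widest ratio, with 29.2 in 5/6Nx and 515 in sham.

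Insrr was the gene of the system furthest apart, at a level 15.4-fold lower in 5/6Nx. The other 9 genes lay between -0.59 and 0.44. The 4 binding proteins and Igf2 were lower in 5/6Nx by less than 2-fold, Insr was higher by less than 2-fold, and Igf1r and Igf2r lay close to 0, while Igf1 depended on the probe. The median of the 10 was -0.35, beside 0.05 over all 25917 measured genes. At least 2-fold apart was 1 of the 10, where 8.18% of all measured genes were, so the count is near that of other genes. The 9 genes other than Insrr lay inside the middle 90% of all measured genes, which spans -0.82 to 0.99. Igf1 is placed there by its brightest probe, while its probes at -1.20, -1.13 and -0.88 lay below that range.

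**Figure D2:**
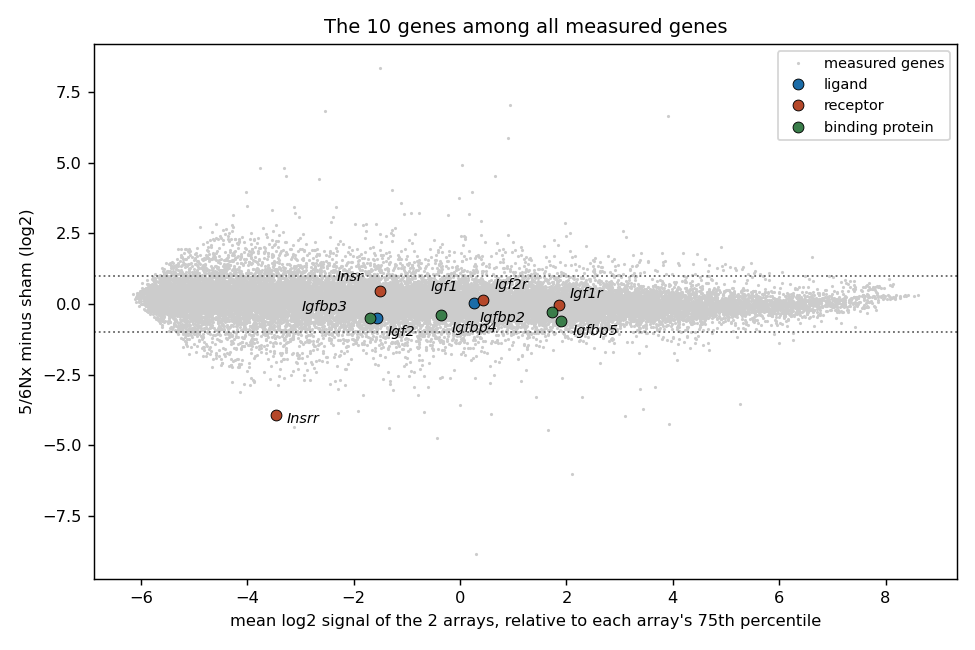
Difference of 5/6Nx minus sham (log2) against the mean log2 signal of both arrays for 25917 measured genes (grey), with the 10 genes of the IGF system coloured by role. Dotted lines mark 2-fold. Insrr at -3.94 lies below nearly all grey points, and the other 9 lie among them. Each gene is shown by its brightest probe.

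The scanner software gives an error for each spot. Carried into the difference it came to between 0.20 and 0.30 on the log2 scale, and 7 of the 10 differences were larger than it. The quartiles of the difference over all measured genes were -0.23 and 0.35, so differences of about that size were common. The share of all genes beyond their own error was not computed. The software error covers the measurement within an array and leaves out the variation between animals. Repeated spots of a probe varied with an SD of 0.05 in 5/6Nx and 0.06 in sham at the median. Between the probes that read the same gene, the SD of the difference was 0.20 at the median.

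Igf1, which encodes the growth factor that carries much of the action of growth hormone, was read by 5 probes with 2 spots each. The brightest, annotated to NM_184052, had spots of 1428 and 1647 in 5/6Nx, against 1574 and 1900 in sham. Its spots overlap between the arrays, and its difference was 0.03 ± 0.20 (software error). The 4 probes annotated to NM_010512 were all lower in 5/6Nx.

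The probe at transcript base 889 had 106 and 122 in 5/6Nx, against 294 and 307 in sham, a difference of -1.20. The probe that overlaps it, at base 909, had 150.4 and 167 in 5/6Nx, against 376 and 422 in sham (-1.13). The probe at base 6909 had 235 and 252 in 5/6Nx, against 488 and 547 in sham (-0.88). For these 3 probes the arrays' spots do not overlap. The probe at base 3252 was the dimmest, with 53.7 and 64.4 in 5/6Nx and 71.5 and 93.2 in sham, and differed by -0.27. Its printed signals, which are not scaled, do not overlap between the arrays, but they do once divided by each array's 75th percentile. With both spots of each probe at hand, the spot-to-spot SD of the difference was at most 0.10, whereas the probes spanned 1.23.

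Of 465 genes with at least 5 measured probes, 89 (19.1%) spanned as much as Igf1 or more, and the median span was 0.72. At least 2-fold lower were 2 of the 5 Igf1 probes, which share 40 bases, beside 3.24% of all measured probes. The mean over the 5 probes was -0.69, against 0.03 for the brightest alone, so neither a direction nor a size for the gene as a whole is given. Whether the probes read different transcripts of Igf1 was not tested.

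**Figure D3:**
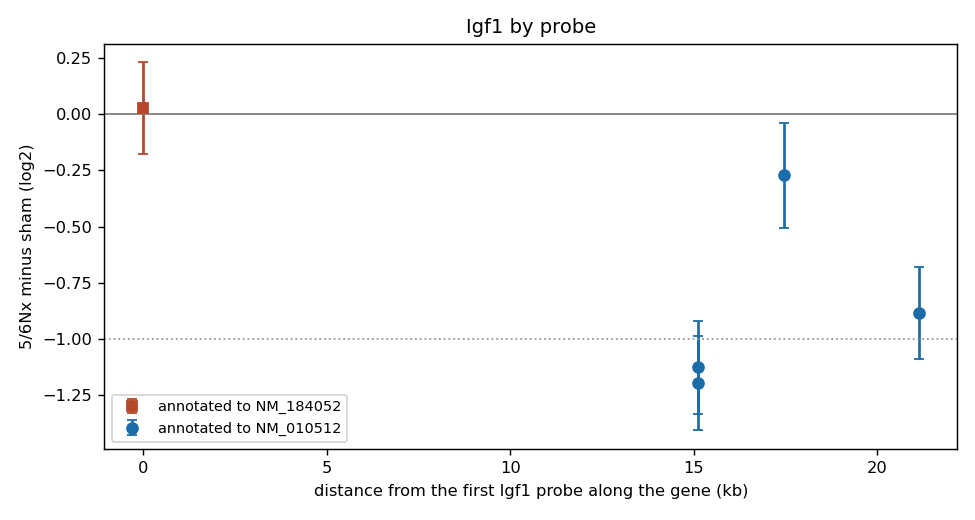
Difference of 5/6Nx minus sham (log2) of the 5 Igf1 probes against their distance along the gene from the first probe (kb), with the software error as bars. The square (NM_184052) lies at 0.03, and the circles (NM_010512) lie between -1.20 and -0.27, with no order by distance among them.

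Igf2, an imprinted growth factor that in the adult brain is made chiefly by the choroid plexus and the meninges, had a single spot. It read 358 ± 36.0 in 5/6Nx and 583 ± 58.4 in sham (software error). The difference was -0.50, and 11.3% of all measured genes lay lower. Its nearest genes with a probe lay between -0.08 and 0.72. The noncoding RNA gene H19, imprinted opposite to Igf2, was at 0.72, the antisense gene Igf2os at 0.12, the insulin gene Ins2 at 0.60 and the mitochondrial ribosomal protein gene Mrpl23 at -0.08.

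Igf1r, which encodes the main signalling receptor of IGF-1 and IGF-2, had 4512 ± 451 in 5/6Nx and 5305 ± 530.5 in sham. Its difference was -0.03, smaller than the software error of 0.20. Igf2r, the receptor that takes IGF-2 up and sorts lysosomal enzymes, had 10 spots of 1 probe, so it is the best replicated value of the set. They ranged from 1699 to 1866 in 5/6Nx, against 1687 to 2004 in sham.

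The spots of Igf2r overlapped between the arrays. Its difference was 0.15, and each of the 10 spots gave a value between 0.04 and 0.21. Igf2r stood at -0.064 under spike-in scaling and at -0.012 under median scaling. Igf1r lay between -0.25 and 0.0055 over the 10 alternatives, below 0 under 5 of them, so the sign of both depends on the processing. The file lists only 11 bases of chromosome 17 for the Igf2r probe, fewer than its 60.

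Insr encodes the insulin receptor, which in the brain acts on feeding, metabolism and synapses. Its 3 probes start within 3805 bases of each other, at equal spacing on transcript and chromosome. They had 519, 206 and 532 in 5/6Nx, against 440.0, 172 and 409 in sham. The differences were 0.44, 0.46 and 0.58, all higher in 5/6Nx and larger than the software error of 0.20 or 0.21. They spanned 0.14, where the median span of genes with 3 measured probes was 0.44. Of all measured genes 80.3% lay lower than Insr.

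Insrr encodes the insulin receptor-related receptor, which binds no known insulin-like hormone and responds to alkaline pH. It is best known from the kidney, while the samples here are hippocampus. Its only spot read 29.2 ± 5.38 in 5/6Nx and 515 ± 51.7 in sham. The difference was -3.94 ± 0.30 (software error), and 8 of 25917 measured genes lay lower. That rank leaves out genes above background on 1 array only, as 27567 genes were above it on at least 1. No rank was computed without background subtraction.

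The 5/6Nx value of Insrr was near the floor of detection. The lowest signal called well above background on that array was 18.8, and 5.44% of the spots above background there were dimmer than Insrr. Before background subtraction the spot read 108 in 5/6Nx and 545 in sham. With no background subtraction the difference was -2.15, and with normexp background correction -2.27, still at least 2-fold lower. Among the 6479 genes of the same signal class as Insrr, when measured genes were divided into 4 equal classes by mean signal, 3.92% were at least 2-fold lower.

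Measured genes next to Insrr on its chromosome lay between -0.23 and 0.35. Pear1, a platelet and endothelial receptor gene, had 264 in 5/6Nx and 278 in sham (0.12). The adaptor gene Sh2d2a was at -0.23 and the proline-rich nuclear protein gene Prcc at 0.35. Insrr has 1 spot of 1 probe, so no second reading on these arrays bears on its value.

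The 4 binding proteins of the set were all lower in 5/6Nx, with a median of -0.46. All 4 differences were larger than the software error, and all were below 2-fold. Of all measured genes 44.6% lay below 0, and 20.3% were as low as the least low of the 4, Igfbp2. Binding protein genes outside the set, given below, lay on both sides of 0. In bulk tissue, fewer cells of a type and less RNA per cell cannot be told apart.

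Igfbp5, which encodes a binding protein that also attaches to extracellular matrix, had 3858 ± 386 in 5/6Nx and 6681 ± 668 in sham. Its difference was -0.59 (1.51-fold), the lowest of the 4. Igfbp3 encodes the main carrier of IGFs in blood. Its brighter probe had 326 ± 32.9 in 5/6Nx and 534 ± 53.5 in sham, a difference of -0.51. A second Igfbp3 probe, annotated to an Ensembl transcript, read 17.0 in 5/6Nx, not well above background, and 49.8 in sham. With the lowest signal called well above background in 5/6Nx (18.8) put in its place, the level was 2.30-fold lower there. That value rests on the subtracted background, and the software error of this probe's difference was 0.44. Before background subtraction this dim probe read 97.5 in 5/6Nx and 127 in sham.

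Igfbp4, whose product mostly inhibits IGF action until the protease PAPP-A cuts it, had 854 ± 85.5 in 5/6Nx and 1297 ± 130 in sham (-0.40). Igfbp2 encodes a major IGF carrier of cerebrospinal fluid. Its 2 probes read 3762 ± 376 and 3563 ± 356 in 5/6Nx, against 5335 ± 533 and 5322 ± 532 in sham. The differences were -0.30 and -0.38, with the second from the coding probe printed above, so the probes differed by less than the software error. The probes of Igfbp2 and Igfbp5 lie 5.96 kb apart on chromosome 1, on opposite strands.

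**Figure D4:**
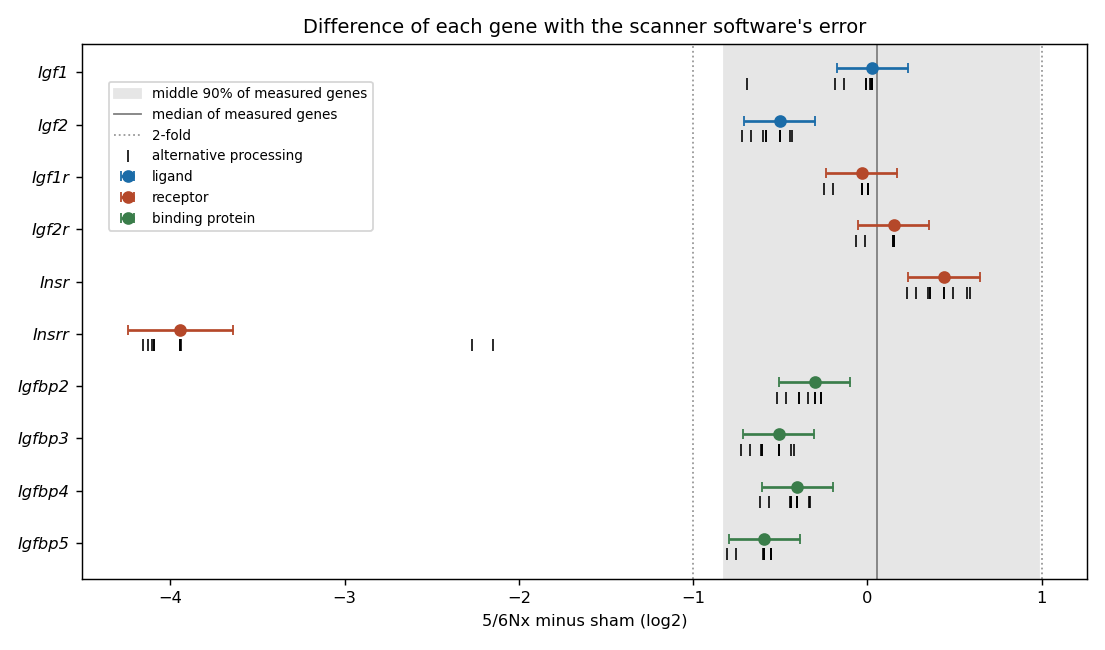
Difference of 5/6Nx minus sham (log2) for each gene, with the software error as bars and black ticks for 10 alternative ways of processing. The grey band holds the middle 90% of measured genes (-0.82 to 0.99). All ticks of Igf2, Insrr and the 4 binding proteins lie below 0, all ticks of Insr above it, and those of Igf1, Igf1r and Igf2r on both sides.

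Markers of other cells that make IGF system transcripts also differed between the arrays. Over all measured genes 3.29% were at least 2-fold lower in 5/6Nx and 4.89% at least 2-fold higher. For the labelled tissue, all 6 CA1 pyramidal and all 7 dentate granule markers were measured. Leptomeningeal fibroblast markers were lower in 11 of 12 by at least 2-fold (median -2.27), led by the transporter genes Slc13a3 (-2.71) and Slc22a6 (-2.61). Their summed signal was 18649 in 5/6Nx and 85053 in sham. Summed signals, here and below, are not scaled to the array, so equal sums would read as a difference of 0.20.

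Choroid plexus epithelium markers were higher in 12 of 14 by at least 2-fold and lower in 1 (median 1.99), led by the transthyretin gene Ttr (6.66) and the chloride channel gene Clic6 (4.90). Their summed signal was 293063 in 5/6Nx and 39793 in sham, and Cldn2 was above background in 5/6Nx only. Igf2 and Igfbp2, which both tissues are known to make, were at -0.50 and -0.30. The part of either tissue in these values was not tested.

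Markers of GABAergic interneurons, some of which express Igf1, were below 0 in 10 of 11 (median -0.54), with the parvalbumin gene Pvalb at -1.03 (its other probe at -0.38) and the somatostatin gene Sst at -0.92. Their summed signal, not scaled, was 264741 in 5/6Nx and 460883 in sham. Cck alone gave 142187 of the sum in 5/6Nx and 263177 of that in sham. Microglia, another source of Igf1, had 2 of 8 markers at least 2-fold lower, Aif1 (-1.29) and Tmem119 (-1.11). The median was -0.23, and 3 of the 8 lay above 0. The summed signals of microglia markers, not scaled, were 158165 in 5/6Nx and 166395 in sham. Itgam alone gave 91876 of the sum in 5/6Nx and 81241 of that in sham. All 6 measured markers of blood cells were lower by 2-fold or more, led by the calprotectin genes S100a9 (-4.39) and S100a8 (-4.34), with summed signals of 6904 in 5/6Nx and 111940 in sham, and Ngp was above background in sham only. The part of these cells in the values of Igf1 was not tested.

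Among other markers, those of CA1 had a median of -0.84, with 5 of 6 below 0, 1 above it and 3 at least 2-fold lower. The 2 furthest from 0 were Ccn3 (-1.34) and Wfs1 (-1.12). Dentate granule cell markers had a median of 0.46, with 6 of 7 above 0, 1 below it and 1 at least 2-fold higher. The 2 furthest from 0 there were Pdzd2 (1.06, its other probe at 0.87) and Tdo2 (0.94). Oligodendrocyte markers (-0.36) held Opalin (-2.30) and Mobp (1.44, with its 3 probes between -0.0038 and 1.44). Astrocyte markers (-0.04) held Gfap (1.12, with its 3 probes between 0.75 and 1.28) and Aqp4 (-0.83, its other probe at -0.59). Endothelial markers (0.20) held Slco1a4 (0.49) and Cdh5 (-0.32), and mural cell markers (-0.10) held Kcnj8 (0.86) and Acta2 (-0.69).

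The other carriers and proteases of the system had 13 of 14 genes measured, with 3 at least 2-fold lower, 1 at least 2-fold higher and a median of 0.35. Over all measured genes 3.29% were at least 2-fold lower and 4.89% higher. Pappa2, which encodes a protease that cuts IGFBP-3 and IGFBP-5, had 44.0 in 5/6Nx and 192 in sham (-1.92). Igfbp1, a binding protein gene best known from the liver, had 28.4 in 5/6Nx and 77.0 in sham (-1.24). In 5/6Nx the signal of Igfbp1 was below that of Insrr (29.2) and that of Pappa2 not far above it, toward the floor of detection (18.8). How far these differences depend on background subtraction was not tested. The probe of Igfbp1 lies 4.09 kb from that of Igfbp3 on chromosome 11.

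Igfbp6, whose product prefers IGF-2, had 6923 in 5/6Nx and 16830 in sham (-1.08). Igfbp7 (0.44) and Igfbpl1 (0.35), named after their values were seen, were higher in 5/6Nx by less than 2-fold. The insulin gene Ins1 had 158 in 5/6Nx and 83.0 in sham (1.13). Ins1 and Ins2 are close copies, so each probe may also bind the other's transcript. Igfals, the gene of the acid-labile subunit of the blood carrier complex, did not stand well above background in 5/6Nx or in sham.

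The relay of insulin and IGF signals from receptor substrates to AKT, mTOR and FOXO had all 38 genes measured. At least 2-fold higher was 1 and at least 2-fold lower 0, beside 4.89% and 3.29% of all measured genes. These counts are near those shares, and the median was 0.0009. The 1 was the forkhead factor gene Foxo3, with 451 in 5/6Nx and 149.7 in sham (1.79), although its other probe stood at 0.28. The kinase gene Mtor, named after its values were seen, was at -0.14 by its brightest probe and at 2.35 by its other one. The kinase gene Akt2 had 8577 in 5/6Nx and 16144 in sham (-0.71), the lowest of the list, and its 4 probes lay between -0.71 and -0.17.

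Genes known to be induced by FOXO factors, which insulin and IGF signals hold back, lay above 0 in 15 of 17, with a median of 0.41. At least 2-fold higher were 3, and 0 were lower. Over all measured genes 44.6% lay below 0, the median was 0.05 and 4.89% were at least 2-fold higher. The pyruvate dehydrogenase kinase gene Pdk4 had 2768 in 5/6Nx and 1183 in sham (1.43). The thioredoxin inhibitor gene Txnip stood at 1.17 (its other probe at 0.88) and the ubiquitin ligase gene Fbxo32 at 1.14.

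Of the growth hormone axis 12 of 13 genes were measured, with a median of 0.06, and Ghrhr was above background in sham only. The prolactin receptor gene Prlr, also a choroid plexus marker, was at 1.56 and was the only 1 at least 2-fold apart, while its other probe stood at 0.65. Socs2, a feedback inhibitor of growth hormone signalling, was at 0.61, but its 4 probes ranged from -1.47 to 0.61. The 13 genes of mannose 6-phosphate sorting, the lysosomal route that Igf2r serves, had a median of -0.06 and 0 at least 2-fold apart. They ranged from -0.62 to 0.20, with 5 above 0. Over all measured genes 8.18% were at least 2-fold apart, so the counts of the growth hormone axis and of sorting are near that share. The 2 sorting genes furthest from 0 were Gaa, an acid glucosidase gene (-0.62, with another probe at 1.45), and M6pr, the smaller mannose 6-phosphate receptor gene (-0.47). Of the Igf2 RNA partners only H19 was measured, since Igf2bp1 and Igf2bp3 were not above background on either array and Igf2bp2 was so in sham only. The 5 probes of H19 lay between 0.14 and 0.72.

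**Figure D5:**
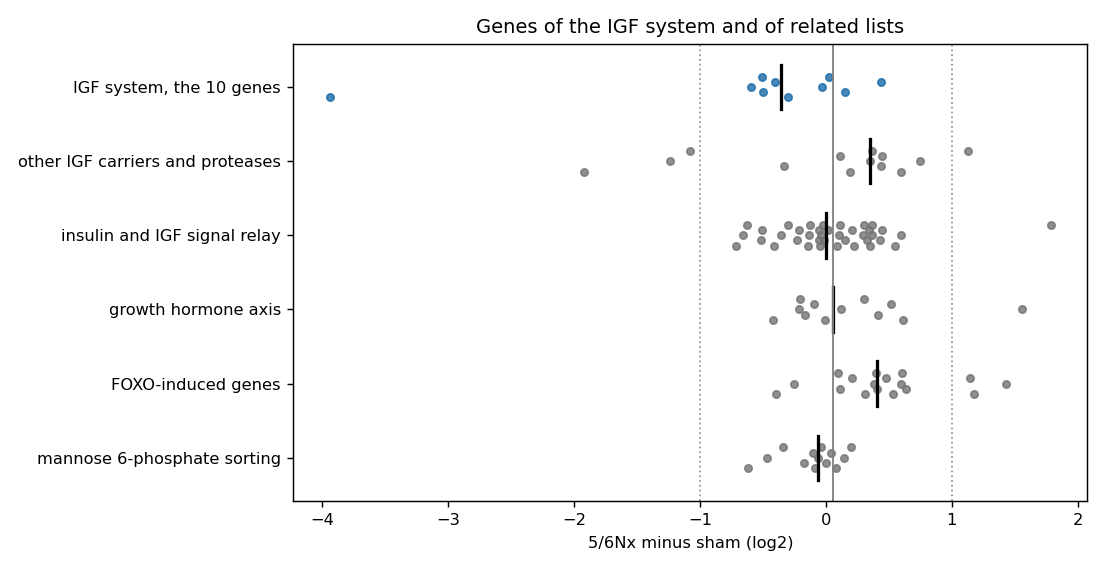
Difference of 5/6Nx minus sham (log2) of the 10 genes of the IGF system (blue) and of the measured genes of 5 related lists (grey), 1 point a gene, with black bars at the medians. The medians are -0.35 for the 10 genes, 0.35 for other carriers and proteases, 0.0009 for the signal relay, 0.06 for the growth hormone axis, 0.41 for FOXO-induced genes and -0.06 for mannose 6-phosphate sorting.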

How the data were processed

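Per the labels' protocols, total RNA was amplified to Cy3-labelled cRNA. The deposited scanner files list an intensity for every spot on a linear scale. According to the file headers, the authors used Feature Extraction 10.7.1.1 (the submitters' processing notes name 9.5.1.1), which subtracts background and removes spatial trends within each array. The deposited series table, also of intensity, has equal sorted values in both columns (within 0.0323%) and served as an alternative. Outlier spots (97 in 5/6Nx, 105 in sham) were left out. Each log2 value was set to the array's 75th percentile and spots of a probe were averaged. A gene was represented by its brightest probe above background on at least 1 array, and counted as measured if that probe was above background on both. Members were matched by the gene name in the files, and other probes through a RefSeq table (GRCm38.p6, names only), 27235 by accession. With 1 array a group no p-value was computed, and precision is limited by that number.

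The members and the 17 lists were chosen with earlier results of these data known. Named were all members and their probes, at most 4 genes a pathway list by size, 2 a marker list, and the 2 nearest genes with a probe on each side of Insrr and Igf2. One of these neighbours is not reported here. The calculation was tested on simulated data. Alternatives used limma 3.58.1 (normexp, offset 50) and statsmodels 0.14.6 (lowess, span 0.3).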

Additional observations from a re-analysis of the deposited data

How the results depend on the processing

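No paired analysis was possible because 5/6Nx and sham hold 1 array each, which also means that none could be left out. A value counts as moved when it shifts by more than the software error. Of 100 member values under 10 alternatives 88 stayed within that error, 12 moved, and Insrr, the 1 member at least 2-fold apart, stayed lower. Part of the 88 could not move. Dropping the filter on dim probes left every member at its reported value. Keeping outlier spots changed only the scaling, since no spot of a member was an outlier. The mean of probes could change only members with several measured probes. The authors' table, with equal sorted values in both columns, nearly repeated quantile normalization. Under both, Igf2 stood at -0.58 and Insrr at -4.09, so they are no separate checks. Spike-in scaling (8 control probes) shifts every gene by -0.22, so all genes measured then have a median of -0.16 instead of 0.05. It gave -0.19 for Igf1, -0.72 for Igf2, -0.25 for Igf1r, -0.064 for Igf2r, 0.22 for Insr, -0.52 for Igfbp2, -0.72 for Igfbp3, -0.62 for Igfbp4 and -0.81 for Igfbp5. Median scaling gave a median of -0.11 over all genes. Igf1 was below 0 under 5 of 10 alternatives, Igf1r under 5 and Igf2r under 2, and the mean over probes gave -0.69 for Igf1. Insrr stood at -2.27 with normexp and at -2.15 with no background subtraction, where a dim probe keeps its background. At 1.5-fold 2 members were apart, Insrr and Igfbp5. The share of all genes at least 2-fold apart was 4.56% after normexp correction and 4.26% on raw signals, against 12.3% with no filter on dim probes and 8.18% as reported, and the share past the threshold was 22.6% at 1.5-fold and 2.44% at 3-fold. Of the 2-fold differences over all genes 59.8% were higher, against 49.2% with quantile normalization, 48.0% with lowess, 49.4% in the authors' table, 41.5% with median scaling and 36.3% with spike-in scaling.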
